A study of Mus musculus with 10 samples.

Results

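The genes described here encode the extracellular matrix of muscle and the receptors that bind it. They were chosen by symbol from the array annotation: collagens, laminins, nidogen 1, fibulins, fibronectin, Sparc, tenascin C, decorin, biglycan, thrombospondins, matrix metalloproteinases, their tissue inhibitors (Timps) and integrin subunits. The rule found 100 array features of 93 genes among the 7697 features tested, of which 6752 carried a gene name. The prefix used for beta integrins also took in Itgb1bp1 and Itgb1bp2, which encode proteins that bind the tail of the beta 1 integrin. Gene expression was measured in the m. quadriceps femoris of 10 male wildtype mice, 2 from each of 5 inbred strains. The strains were CBA (CBA/CaOlaHsd), BL10 (C57Bl/10ScSnOlaHsd), BL6 (C57Bl/6JOlaHsd), DBA (DBA/2OlaHsd) and BALB (BALB/cOlaHsd), all untreated, received at 6 weeks and killed at 8 weeks of age. Each array set the labelled cDNA of an animal in Cy5 against that of an animal of another strain in Cy3, so every value is a ratio between 2 animals and no absolute level was available.

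The matrix around muscle fibres has layers that differ in their proteins. Fibrillar collagens form the fibres of the connective tissue between muscle cells, and Sparc is a collagen-binding protein made by fibroblasts along with them. Each muscle fibre is wrapped in a basement membrane, a sheet of type IV collagen and laminin joined by nidogen, and integrins, which are pairs of an alpha and a beta subunit, anchor cells to it. Metalloproteinases cut matrix proteins and Timps inhibit them. Since whole muscle was measured, a lower level from fewer fibroblasts cannot be told apart from less RNA per fibroblast.

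Of the 10 arrays, 2 held identical values at every spot although the labels gave them different animals (BALB 1 with CBA 2, and BL6 2 with CBA 1). Neither was used here, which left 8 arrays. Over these 8 arrays the 2 spots of a feature correlated with r = 0.645 to 0.853, and the SD of the log2 ratios was 0.347 to 0.559. The 2 CBA animals were then left only in Cy5 and only against BL10, so that a CBA level rested on the fitted dye effect. Its median SE over the members was 0.231 on the log2 scale, against 0.129 to 0.161 for the other 4 strains. BL10 was in Cy3 only against CBA. Its place against BALB and DBA, with BL10 in Cy5 each time, therefore also rested on the fitted dye effect. In what follows, a level is the fitted log2 value of a strain relative to the mean of the 5 strains, and a contrast is a strain minus the mean of the other 4, tested with limma and adjusted over all 7697 features with a false discovery rate (FDR) of 10%. With 2 animals for each strain, the spread between animals of a strain is poorly known. The 8 arrays form 2 chains that share no animal, and DBA is in the larger chain only. A value given for an animal is its difference from the other strains of its own chain. Values of animals in different chains are therefore not on a common scale.

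Differences between strains were small for most of these genes and were carried by a minority. The median member spanned 0.45 on the log2 scale between its highest and its lowest strain, which was also the median over all features. A span over 1, a doubling, was reached by 12 of the 100 members (12%), against 5.70% of all features. These were Timp2, Col3a1, Fn1, 1 feature of Col11a1, Itgax, Mmp1b, Sparc, Itgb2l, Col6a1, Col1a1, Itga8 and Dcn. In all of these but Col3a1, Itgax, Sparc and Col1a1, the highest strain was CBA, whose level rested on the fitted dye effect. The CBA contrasts of Timp2, Fn1, Col6a1 and Dcn changed sign with all 10 arrays as labelled. The spots of Timp2, Mmp1b and Itga8 were among those that disagreed most. At an FDR of 10%, 0 of the 100 members differed between the strains by limma's moderated F, where 0.13% of all features did. At an unadjusted p under 0.05 the count was 21 of 100, where 14% of all features passed. Fibulins and glycoproteins (4 of 7 features), network collagens (4 of 9) and fibrillar collagens (3 of 8) gave 11 of these 21, and the laminins and nidogen (2 of 14), metalloproteinases (2 of 16), other collagens (2 of 14), alpha integrins (2 of 13), beta integrins (1 of 9), Timps (1 of 4), leucine-rich proteoglycans (0 of 2) and thrombospondins (0 of 4) gave the other 10. These class counts are descriptions. With 1 animal left out at a time, the count of 21 became 59 without BALB 2 (49.2% of all features), 50 without DBA 1 (47.9%), 43 without BL6 1 (40.1%), and 8 to 11 without BL10 2, BL10 1, CBA 2 or CBA 1 (5.11% to 8.08% of all features). The share over all features moved with it each time. Leaving out an animal took out every array that held it. Without BL10 1 the fit also lost CBA 1, without BL10 2 it lost CBA 2, and without BALB 2 it lost BL6 2. Fewer arrays were then left to estimate the spread, so counts with an animal left out, here and below, are not the influence of that animal alone.

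**Figure D1:**
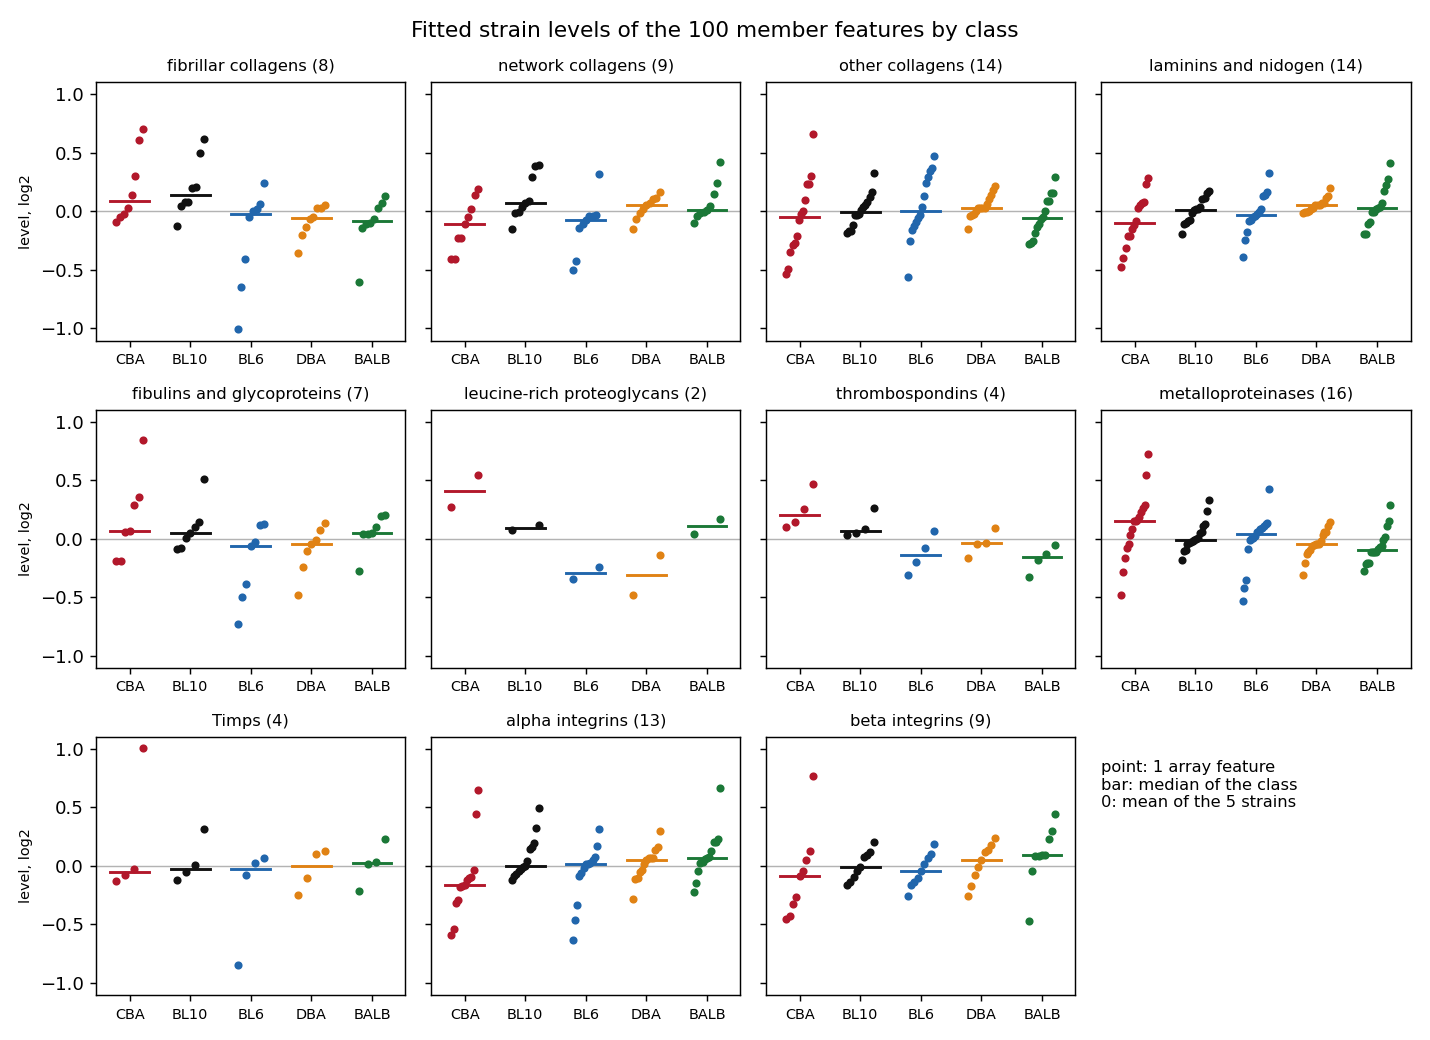
Fitted level (log2, 0 is the mean of the 5 strains) of each member feature in each strain, 1 panel a class, with the median of the class as a bar. The lowest BL6 points among the fibrillar collagens are Col3a1 at -1.004 and Col1a1 at -0.65, and the spread of the CBA points is wide in most classes.

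Against the other 4 strains, 19 of the 100 members were lower in BL6 at an unadjusted p under 0.05, where 6.64% of all features were, and 6 were higher, where 8.38% were. The 19 took in collagen genes (Col1a1, Col3a1, Col4a2, Col4a3, Col5a2 and Col6a1), Fbln2, Fn1, Sparc, Lamc1 and Thbs1, the proteases and inhibitor Mmp2, Mmp12, Mmp1b and Timp2, and Itga4, Itga8, Itgax and Itgb1bp1. In BL10, 12 members were higher (4.11% of all features) and 0 were lower (3.52%), and 11 of these 12 were among the 19 that were lower in BL6. These contrasts share the same 8 arrays and each holds the other strain among its other 4, so they are not separate observations. Both BL6 animals lay below the mean of the other strains of their chain of arrays for all 19, and both BL10 animals above it for all 12. The 19 and the 12 were picked by the fit of these same arrays, so this is no separate support. Of the BL6 animals, BL6 2 was on 1 array only, in Cy3 against BALB 2, so its value rested on the fitted dye effect. Before dye correction, BALB 2 over BL6 2 was above 0 for 13 of the 19, against 3848 of all 7697 features. It was below 0 for Col5a2, Col6a1, Fn1, Mmp1b, Mmp2 and Itga8. Over all 100 members, the BL6 animals had the same sign for 63 (68.1% of all features) and the BL10 animals for 66 (65.9%). A single strain could still lie beyond BL6 or BL10, as CBA lay above BL10 for Timp2 and Col6a1. At an FDR of 10%, Timp2 was the 1 member that passed in BL6 (0.065% of all features), and 0 passed in BL10 (0.065%), DBA (0.013%), CBA (0%) or BALB (0%). The count of 19 became 12 without BALB 1, 11 without BL10 2 and 6 without BL10 1 (5.42%, 3.79% and 1.73% of all features), and was 15 to 24 without any other animal. It also depended on the processing, being 9 with the first spot alone (5.18% of all features), 9 without a dye term (5.17%), 10 with all 10 arrays (8.98%), 12 with the identical values entered as BALB 1 against CBA 2 (9.25%) and 7 with them entered as BL6 2 against CBA 1 (8.22%). With the identical arrays entered in any of these ways, the share of the members was near that of all features. Each spot alone put the BL6 contrast below 0 for all 19, but for 9 of them 1 of the spots moved it by over 1.5 times. Among these 9, the contrast of Itga4 was -0.0061 from the first spots, which is near 0, and -0.84 from the second. For Itga8 it was -0.12 and -1.04, and for Mmp2 -0.94 and -0.11. The Itga4 spots read 0.14 and -0.99 on BL6 1 over DBA 2, the array with the lowest correlation between spots (r = 0.645). The count of 12 in BL10 became 0 without BL10 1 (0.442% of all features), 6 without BL10 2 (2.30%), 20 without BL6 1 (11.9%) and 25 without DBA 1 (12.4%).

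Col1a1 and Col3a1, which encode the main chains of the type I and type III collagen fibres of connective tissue, were in both counts. Col1a1 (U08020) had log2 ratios of 0.91 for BALB 2 over BL6 2, 0.45 for DBA 1 over BL6 1 and -0.52 for BL6 1 over DBA 2. For the same gene, BL10 1 over BALB 2 and BL10 2 over DBA 1 both gave 0.54, CBA 1 over BL10 1 gave -0.21, CBA 2 over BL10 2 gave -0.43, and DBA 2 over BALB 1 gave -0.05. BL6 was thus the lower partner on all 3 of its arrays, in either dye. BL10 was the higher partner on all 4 of its arrays, but was in Cy3 only against CBA. Against BALB and DBA it was in Cy5 each time. The BL6 contrast was -0.81 ± 0.17 (SE, adjusted p = 0.18 by limma) and the BL10 contrast 0.63 ± 0.14 (adjusted p = 0.42), and neither passed. Taken by animal within its own chain of arrays, BL6 1 lay 0.63 and BL6 2 1.12 below the other strains.

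Col3a1 (M18933) had the same sign as Col1a1 on all 8 arrays. Its values were 0.68 for BALB 2 over BL6 2, 0.86 for DBA 1 over BL6 1 and -0.64 for BL6 1 over DBA 2, and 0.50 and 0.49 for BL10 1 over BALB 2 and BL10 2 over DBA 1. CBA 1 over BL10 1 gave -0.07, CBA 2 over BL10 2 -0.35, and DBA 2 over BALB 1 -1.17. The last of these sets the DBA animals apart, since DBA 2 lay 0.76 below the other strains of its chain and DBA 1 0.13 below. The BL6 contrast of Col3a1 was -1.25 ± 0.26 (SE, adjusted p = 0.18 by limma), with the BL6 animals at -1.38 and -1.40. It turned to 0.12 when the identical arrays were both entered as labelled, and to 0.096 when they were entered as BL6 2 against CBA 1 alone.

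Sparc (NM_009242), whose product binds collagen, had 0.71 for BALB 2 over BL6 2, 1.21 for DBA 1 over BL6 1 and -0.54 for BL6 1 over DBA 2. It had 0.72 for BL10 1 over BALB 2, 0.20 for BL10 2 over DBA 1, -0.34 for CBA 1 over BL10 1, -0.44 for CBA 2 over BL10 2 and -0.38 for DBA 2 over BALB 1. As for Col1a1 and Col3a1, BL6 was the lower partner and BL10 the higher partner on every array that held them. The BL6 contrast was -0.92 ± 0.23 (SE, adjusted p = 0.21 by limma) and the BL10 contrast 0.63 ± 0.19 (adjusted p = 0.61). The spots of a pair lay close together for these genes on most arrays, and the widest gap was that of Col1a1 on BALB 2 over BL6 2.

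**Figure D2:**
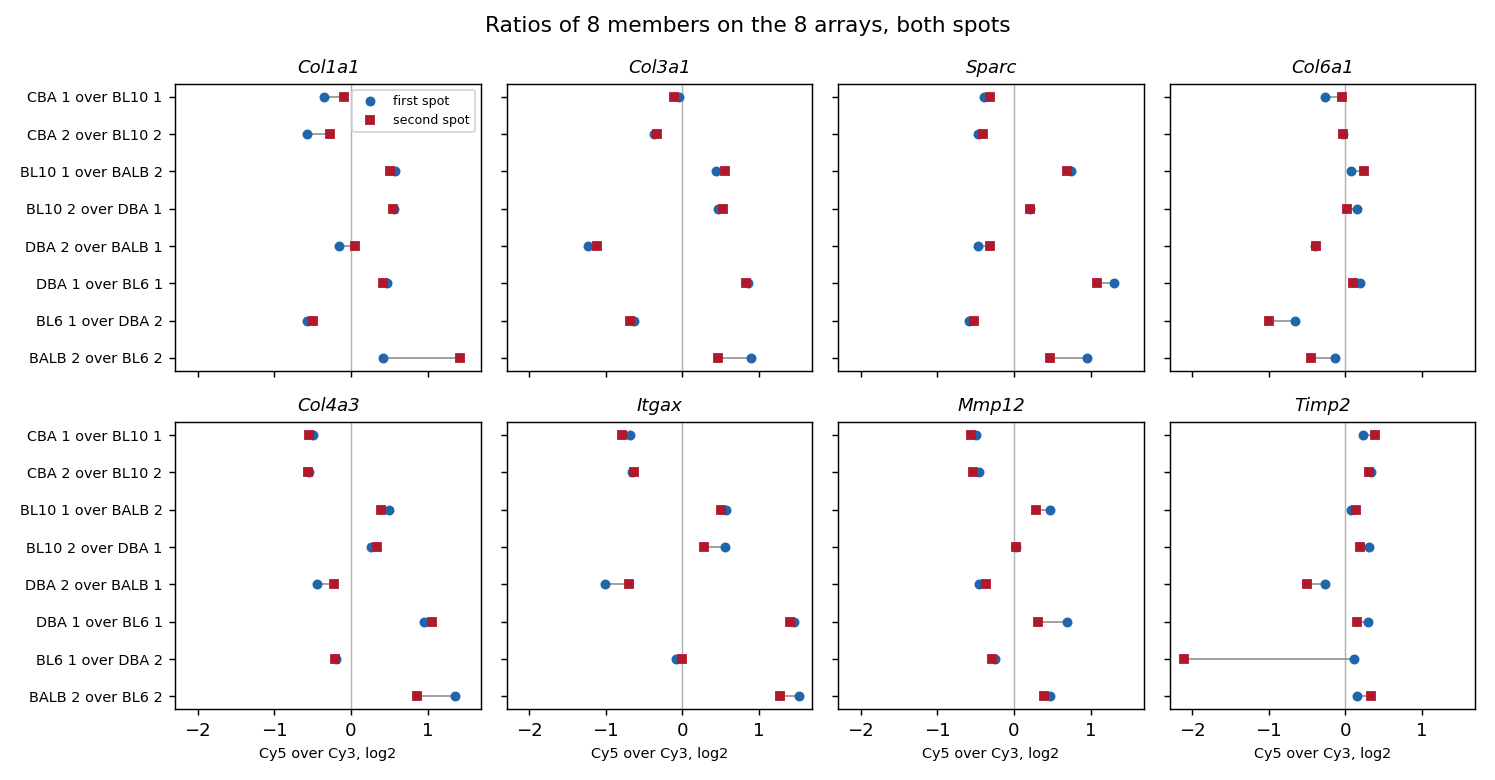
Log2 ratio of Cy5 over Cy3 on each of the 8 arrays for 8 members, with the first spot of the feature as a blue circle and the second as a red square. For Col1a1, Col3a1 and Sparc the arrays with BL6 in Cy3 lie to the right of 0 and BL6 1 over DBA 2 lies to the left, and the second Timp2 spot at -2.11 stands alone.

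Since Col3a1 and Sparc lay low in BL6 together, the sequences before their starts are shown, from RefSeq on GRCm38.p6, with 250 bases before and 50 after the first base of the gene, on the strand of the gene. A promoter was matched for 66 of the 93 member genes, and none for Col1a1. Capitals mark any match on either strand to the letters TATAAA (the TATA box, held by 13.6% of the 32851 promoters of that length in the table), CCAAT (the CCAAT box, 37.4%), GGGCGG (the GC box, 35.7%) or TGANTCA (the AP-1 motif, 7.81%). Col3a1 lies at chr1:45311288-45311587 on the plus strand, Sparc at chr11:55420031-55420330 on the minus strand.
Col3a1: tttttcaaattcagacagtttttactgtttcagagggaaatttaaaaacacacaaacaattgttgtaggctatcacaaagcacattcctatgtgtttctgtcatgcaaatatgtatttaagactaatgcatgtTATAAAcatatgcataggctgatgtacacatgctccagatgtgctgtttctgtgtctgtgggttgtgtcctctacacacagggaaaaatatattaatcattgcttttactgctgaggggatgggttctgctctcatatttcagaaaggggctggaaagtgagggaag
Sparc: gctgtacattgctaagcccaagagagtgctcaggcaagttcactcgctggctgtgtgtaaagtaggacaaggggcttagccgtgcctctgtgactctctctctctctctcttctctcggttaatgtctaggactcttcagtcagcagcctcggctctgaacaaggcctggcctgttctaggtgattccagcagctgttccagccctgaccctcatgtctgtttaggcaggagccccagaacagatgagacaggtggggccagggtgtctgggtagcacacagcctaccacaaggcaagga
TATAAA occurs 1 time in the Col3a1 window, 117 bases before the start, and none of the 4 motifs occurs in that of Sparc. The windows thus shared no match to these 4. The letters CANNTG (the E-box, held by 72.3% of promoters) were not marked, and both windows hold them. A match is a run of letters and not a measured site.

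Fibroblast markers other than the members themselves were few on the array. The list of fibroblast and tendon markers had 7 features of 6 genes, 3 of them members (Col1a1, Col3a1 and Dcn). Of the other 4, Pdgfra (NM_011058), a receptor on fibroblasts, had a level of 0.39 in BL6 and -0.28, -0.27, 0.15 and 0.01 in CBA, BL10, DBA and BALB, while its second feature (U47923) spanned 0.31. Fmod, a proteoglycan of tendon, had -0.11 in BL6 and 0.28 in BL10, and Tnmd, a tendon gene, spanned 0.21. The part of connective tissue content in the collagen values was not tested.

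**Figure D3:**
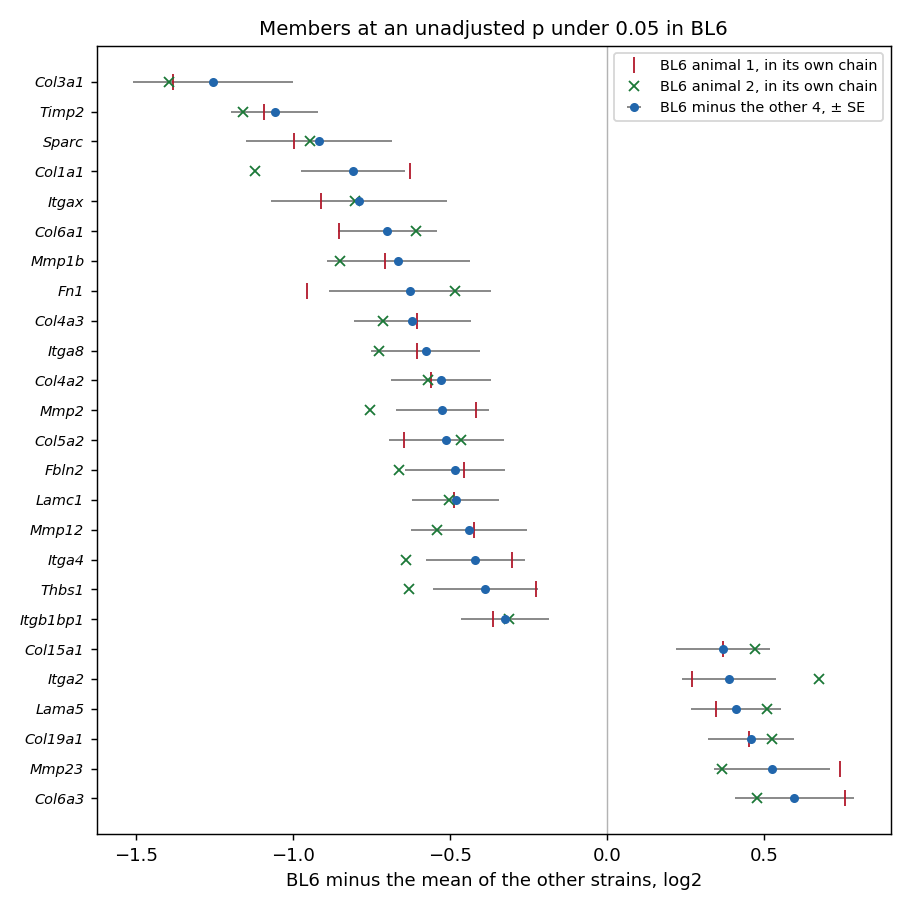
The 25 member features with an unadjusted p under 0.05 for BL6 against the other 4 strains, with the contrast and its SE (log2) and each BL6 animal in its own chain. The first 19 lie below 0 and the last 6 above it, in both animals, from Col3a1 at -1.25 to 1 feature of Col6a3 at 0.60.

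The pair of arrays that held BL6 1 in each dye, against DBA 1 and DBA 2, can be read without a fitted dye effect. Both arrays were part of the fit, so they are no separate check of the BL6 contrasts. Over all 100 members the ratios had opposite signs on 37, that is, BL6 was the lower partner on both arrays for 24 and the higher partner on both for 13. Over all 7697 features these shares were 16% lower and 16% higher. The difference of BL6 1 from the mean of the DBA animals with the dye averaged out was -0.87 for Sparc, -0.75 for Col3a1, -0.74 for Itgax, -0.61 for Col4a3 and -0.49 for Col1a1 and Col6a1. It was -0.12 for Fbln2, -0.20 for Fn1 and -0.23 for Mmp2, whose signs on the 2 arrays were the same.

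**Figure D4:**
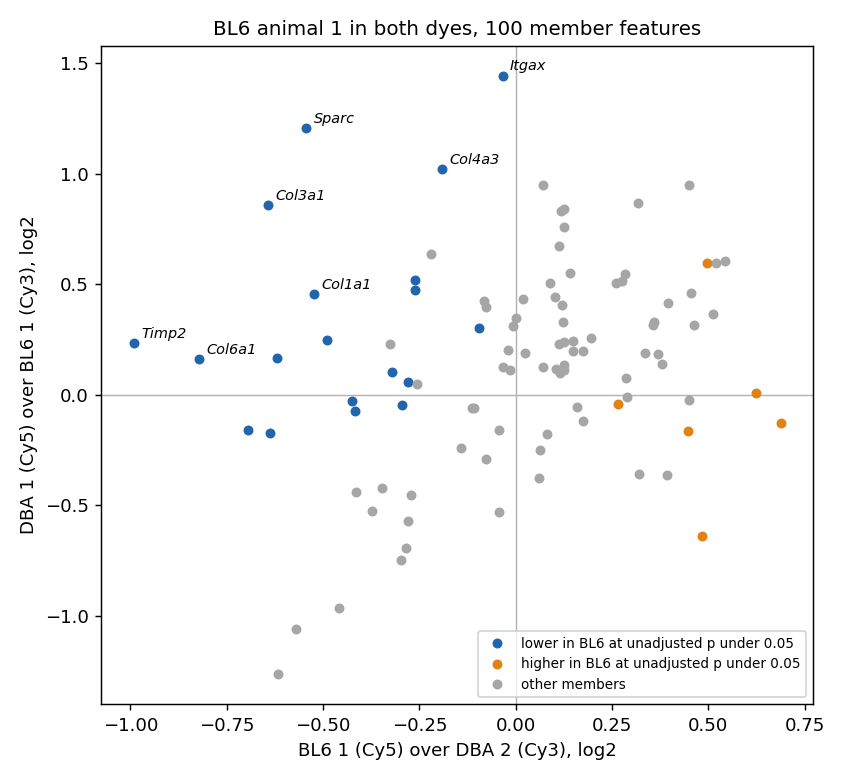
Log2 ratios of the 100 member features on the array with BL6 1 in Cy5 against DBA 2 (x axis) and on the array with DBA 1 in Cy5 against BL6 1 (y axis). Points in the upper left quadrant had BL6 as the lower partner in both dyes (24 features, with Sparc, Col3a1 and Col1a1 among them), and points in the lower right quadrant had it as the higher partner (13 features).

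In the basement membrane, the type IV collagen genes were not alike. Col4a1 and Col4a2, whose products assemble into the common type IV network, were higher in BL10, and Col4a2 was lower in BL6, at an unadjusted p under 0.05. Col4a2 (J04695) had animals at -0.56 and -0.57 in BL6 and at 0.62 and 0.39 in BL10, and its BL6 contrast was -0.53 ± 0.16 (SE, adjusted p = 0.23 by limma). Its spots differed, with a BL6 contrast of -0.32 from the first spots and -0.75 from the second, and they read 0.08 and -0.62 on BL6 1 over DBA 2. Col4a1 (J04694) had animals at 0.62 and 0.13 in BL10 and at 0.02 and -0.43 in BL6. BL10 lay above BL6 in each chain of arrays, but BL10 2 lay close to BL6 1. Its BL10 contrast was 0.37 ± 0.14 (SE, adjusted p = 0.64 by limma). The Col4a1 spots differed as well, with a BL10 contrast of 0.11 from the first spots and 0.63 from the second. Its BL6 contrast changed sign between them, from 0.21 to -0.54. The 2 genes lie head to head, and their promoter windows share 78 bases. The Col4a2 window, shown because it covers this shared start, lies at chr8:11312555-11312854 on the plus strand, with capitals for the same letters as above.
Col4a2: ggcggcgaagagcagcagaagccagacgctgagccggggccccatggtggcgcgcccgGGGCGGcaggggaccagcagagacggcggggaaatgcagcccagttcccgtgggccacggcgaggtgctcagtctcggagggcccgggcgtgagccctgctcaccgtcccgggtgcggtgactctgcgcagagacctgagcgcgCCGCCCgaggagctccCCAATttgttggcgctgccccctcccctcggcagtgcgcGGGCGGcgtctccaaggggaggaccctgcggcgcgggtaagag
The GC box occurs 3 times, counting both strands, and the CCAAT box 1 time in this window, with no overlap between them.

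Col4a3, which encodes a chain of the type IV network of the kidney glomerulus, had the widest span of the type IV genes, 0.915. Its log2 ratios were 1.02 for DBA 1 over BL6 1, 1.11 for BALB 2 over BL6 2 and -0.19 for BL6 1 over DBA 2, against -0.51 and -0.56 for CBA over BL10 and 0.44 for BL10 1 over BALB 2. BL6 and CBA were low (levels -0.50 and -0.41) and BL10 and BALB high (0.39 and 0.42), with DBA at 0.10. The BL6 contrast was -0.62 ± 0.19 (SE, adjusted p = 0.23 by limma). Col4a1 had contrasts of the same sign as Col4a3 in CBA (-0.29), BL10 (0.37), BL6 (-0.17), DBA (0.074) and BALB (0.018). Col4a2 had the opposite sign in CBA (0.17), DBA (-0.084) and BALB (-0.049). The averaged spots gave narrower spans for Col4a5 (0.062), Col4a6 (0.299) and Col4a4 (0.547). The Col4a5 average joined spots that ran opposite ways, with a BL6 contrast of 0.30 from the first spots and -0.43 from the second. The Col4a4 spots also differed, with a CBA contrast of 0.057 and -0.64. Col8a1, which encodes a short-chain network collagen of vessels, was low in CBA (-0.50 ± 0.21, adjusted p = 0.42).

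Among laminins, Lamc1, the gamma chain of most laminins, lay low in BL6. The BL6 animals were at -0.49 and -0.50, the CBA animals at 0.41 and 0.34, and the other 6 animals between -0.01 and 0.16. BL6 was the lowest strain in each chain of arrays. The contrast was -0.48 ± 0.14 (SE, adjusted p = 0.23 by limma). Lama5 ran the other way, at a level of 0.33 in BL6 and -0.40 in CBA (BL6 contrast 0.41 ± 0.14, adjusted p = 0.26). Nid1, which links laminin to type IV collagen, was at 0.56 and 0.55 in the BALB animals and at -0.60 and -0.53 in the CBA animals, with the other 6 between -0.15 and 0.33. Its BALB contrast was 0.52 ± 0.15 (SE, adjusted p = 0.35 by limma). Lama2, the alpha chain of the laminin around muscle fibres, spanned 0.475, with BALB at 0.23 and BL6 at -0.25. None of the 14 laminin and nidogen features passed in any contrast. Of them, 2 (Lamc1 and Nid1) reached an unadjusted p under 0.05 for differences among strains (14.3%, against 14% of all features).

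Timp2 (NM_011594) encodes an inhibitor of metalloproteinases that also takes part in the activation of Mmp2. It fell in BL6, with a contrast of -1.06 ± 0.14 (SE, adjusted p = 0.073 by limma), and had the widest span of the members, 1.85, with levels of -0.85 in BL6 and 1.003 in CBA. This call rested on 1 spot. The second spot of the feature read -2.11 on BL6 1 over DBA 2, where the first spot read 0.11. On the other 7 arrays the spots lay between -0.51 and 0.39. With the first spot alone on that array, the BL6 contrast was -0.28 ± 0.16 (adjusted p = 0.41) and the CBA contrast 0.40 ± 0.22 (adjusted p = 0.49), against 1.25 ± 0.20 (adjusted p = 0.26) for CBA with both spots. With the first spots alone on every array, the BL6 contrast was -0.23 (adjusted p = 0.64), and with the second spots alone it was -1.91 (adjusted p = 0.013). Timp2 had the largest disagreement between spots of the 100 members, with a root mean square difference of 0.795 over the arrays, where the median member had 0.282. The adjusted p of the call was also over 0.10 without each of BALB 1 (0.12), BL10 1 (0.20), BL10 2 (0.104), BL6 1 (0.29), BL6 2 (0.12), CBA 1 (0.15) or CBA 2 (0.17), and under it without BALB 2 (0.0068) or DBA 1 (0.0043). The other 3 Timps had narrower spans from the averaged spots, 0.23 for Timp1, 0.35 for Timp3 and 0.21 for Timp4. The Timp1 average joined spots that ran opposite ways in BL6, with a contrast of 0.38 from the first spots and -0.22 from the second.

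The 16 metalloproteinases, which include collagenases, gelatinases and membrane-bound forms, had a median span of 0.362, against 0.45 over all features. An unadjusted p under 0.05 was reached by 2 of them (12.5%), near the 14% of all features. Mmp2, gelatinase A, was at -0.42 and -0.76 in the BL6 animals and at 0.80 and 0.54 in the CBA animals, with the other 6 between -0.25 and 0.20. Its BL6 contrast was -0.52 ± 0.15 (SE, adjusted p = 0.23 by limma), but the first spots gave -0.94 and the second -0.11, and on BL6 1 over DBA 2 the spots read -1.13 and -0.16. The CBA contrast of Mmp2 was likewise 1.18 from the first spots and 0.19 from the second. Mmp12, the macrophage elastase, was at -0.43 and -0.54 in BL6 and at 0.58 and 0.30 in BL10, where its contrasts were -0.44 ± 0.18 and 0.41 ± 0.15 (adjusted p = 0.31 and 0.64). Mmp14, a membrane-bound activator of Mmp2, spanned 0.130, the narrowest of the class. Mmp1b had a span of 1.25, but its spots disagreed more than those of any other members save Timp2 and Col5a1 (root mean square difference 0.678). CBA was the highest strain for 9 of the 16, against 29.2% of all features.

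Of the integrin genes, Itgax varied most. It encodes the alpha X subunit (CD11c) of dendritic cells and macrophages. Its log2 ratios were 1.44 for DBA 1 over BL6 1, 1.39 for BALB 2 over BL6 2, 0.54 for BL10 1 over BALB 2 and 0.42 for BL10 2 over DBA 1. They were -0.85 for DBA 2 over BALB 1, -0.73 and -0.65 for CBA over BL10, and -0.03 for BL6 1 over DBA 2. By animal, BALB was at 1.07 and 0.58, BL10 at 0.83 and 0.54 and DBA at 0.37 and -0.34. CBA was at -0.61 and -0.71 and BL6 at -0.91 and -0.80. BALB and BL10 lay above the rest in each chain of arrays, and changed order between the chains. The BL6 contrast was -0.79 ± 0.28 (SE, adjusted p = 0.27 by limma) and the BALB contrast 0.83 ± 0.27 (adjusted p = 0.36). The order of strains for Itgax was the order for Col4a3, with BALB first, then BL10, DBA, CBA and BL6. The BALB contrast of Itgax was -0.24 without BL6 1.

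The macrophage and leukocyte markers did not follow that order as a list. Of 9 features, 0 passed an FDR of 10% between strains (0.13% of all features) and 3 had an unadjusted p under 0.05 (14% of all features). C1qa and Cd68 had levels of -0.82 and -0.41 in BL6, against 1.23 and 1.05 in CBA, while Cd52 was at -0.26 in BL6, 0.45 in BALB and -0.49 in CBA. The medians over the list were 0.087 in CBA, 0.058 in BL10, -0.103 in BL6, -0.00066 in DBA and -0.116 in BALB. The part of leukocyte content in the Itgax and Mmp12 values was not tested.

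Itga2, the alpha chain of a collagen receptor, was higher in BL6 and DBA (levels 0.31 and 0.30) than in CBA (-0.59). Its CBA contrast was -0.74 ± 0.22 (SE, adjusted p = 0.38 by limma). Itga8, which pairs with beta 1, was at -0.61 and -0.73 in the BL6 animals and at 0.90 and 0.71 in the CBA animals, but its first spots gave a CBA contrast of 0.18 and its second spots one of 1.46. Itgb1, the beta chain shared by most matrix integrins, had a level of 0.44 in BALB and -0.33 in CBA (BALB contrast 0.55 ± 0.18, adjusted p = 0.36). Itgb3 was at 0.30 in BALB and -0.43 in CBA, and Itgb2l, a relative of the leukocyte beta chain Itgb2, ran the other way at -0.47 in BALB and 0.77 in CBA. Itga7, the alpha chain of the laminin receptor of muscle fibres, spanned 0.383, and Itgb1bp2, the muscle protein melusin, 0.405, and neither had an unadjusted p under 0.05. In DBA, 2 members (Itga2 and Itgb3) were higher at an unadjusted p under 0.05 (3.52% of all features), and 5 (Dcn, Fbln2, Fn1, Itga8 and Timp2) were lower (2.12%). In BALB, 8 were higher (7.15% of all features), 3 of them the integrins Itgax, Itgb1 and Itgb3, and 4 were lower (4.16%).

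Among the remaining matrix genes, Col6a1, a chain of the microfibrillar type VI collagen around muscle fibres, was at -0.86 and -0.61 in the BL6 animals and at 0.70 and 0.997 in the CBA animals. BL10 was at 0.34 and 0.51, DBA at -0.15 and -0.34 and BALB at -0.41 and -0.44. The BL6 contrast was -0.70 ± 0.16 (SE, adjusted p = 0.21 by limma). Fn1, fibronectin, was lower in BL6 and DBA (levels -0.50 and -0.48) and higher in CBA (0.84), and its ratio of -1.46 for DBA 2 over BALB 1 was the lowest of the member ratios on any array. Fbln2, a glycoprotein of elastic fibres and basement membranes, was at -0.46 and -0.66 in BL6 and -0.25 and -0.35 in DBA, with the other 6 animals between 0.04 and 0.39. Its BL6 contrast was -0.48 ± 0.16 (SE, adjusted p = 0.24 by limma), with -0.20 from the first spots and -0.77 from the second, and on BL6 1 over DBA 2 the spots of Fbln2 had opposite signs (0.12 and -0.73). Dcn, a proteoglycan on collagen fibrils, was low in DBA 2 (-1.07) but not in DBA 1 (-0.18), with BL6 at -0.62 and -0.53, and Bgn, its relative, spanned 0.51. Col15a1, a collagen of the outer basement membrane, was at 0.37 and 0.47 in BL6 and at -0.62 and -0.61 in CBA (CBA contrast -0.61 ± 0.21, adjusted p = 0.40). The 4 thrombospondins, secreted proteins that bind matrix and cells, had no feature at an unadjusted p under 0.05 between strains, where 14% of all features were. Thbs1 had a BL6 contrast of -0.39 ± 0.17 (adjusted p = 0.32), and Thbs4 spanned 0.23, with all 10 animals between -0.19 and 0.22.

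CBA stood at an end of the order more often than any other strain, being highest for 37 of the 100 members, against 29.2% of all features, and lowest for 37, against 37.7% of all features. At an unadjusted p under 0.05, 10 members were higher in CBA (5.08% of all features) and 9 lower (6.42%). These levels moved with the dye. CBA was above the mean of the strains for 30 of the 34 members whose Cy5 over Cy3 effect was below 0, and for 18 of the 66 whose effect was above 0. Across the 100 members the CBA level and the dye effect correlated with r = -0.80, and across all 7697 features with r = -0.58. For BL10, BL6, DBA and BALB the correlations over the members were -0.28, 0.36, 0.71 and 0.58. These are correlations across features that share the same 8 arrays, in which both terms come from 1 fit. The ratios themselves were repeatable, as those of CBA 1 over BL10 1 and CBA 2 over BL10 2 correlated with r = 0.68 over the members and 0.78 over all features, but they held CBA in Cy5 on both arrays. A strain difference of CBA and a dye effect therefore cannot be told apart on those arrays alone, and the CBA values above are as the fit gave them.

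**Figure D5:**
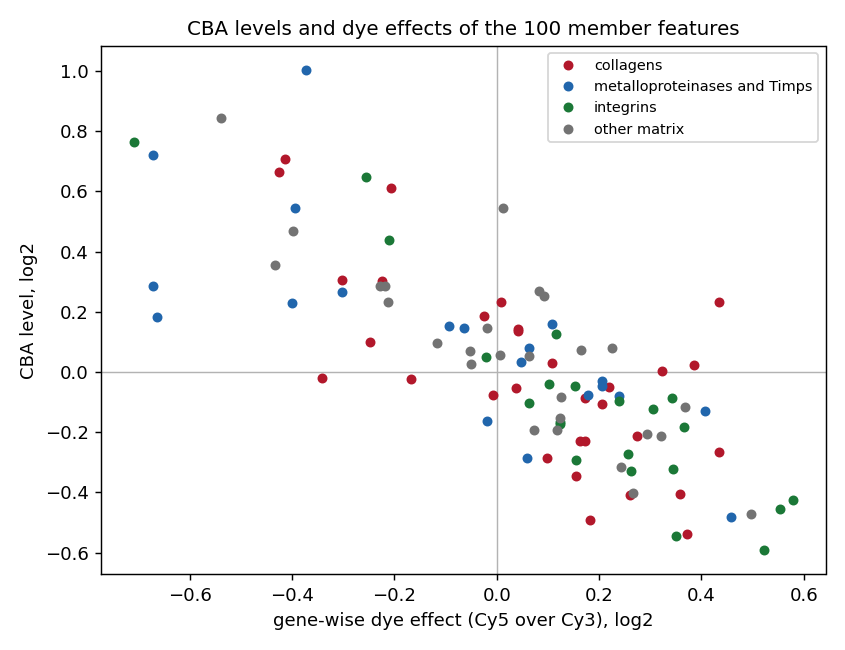
Fitted CBA level (log2) against the fitted dye effect (log2, Cy5 over Cy3) for the 100 member features, coloured by kind of gene. The points run downward (r = -0.80), with Timp2, Fn1 and Itgb2l in the upper left.

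For 5 of the genes, the array held several features (12 in all), and these did not give 1 answer. The Col11a1 feature X91014 had levels of 0.71 in CBA and -0.60 in BALB, while the other (NM_007729) had -0.05 and -0.10. Of 3 Col6a3 features, AF034136 was highest in CBA (0.30), AF064750 was highest in BL6 (0.48), and AF064749 was highest in BALB (0.087). The Tnc features had CBA as the highest strain (0.36, AJ236880) and as the lowest strain (-0.19, NM_011607). The Lama1 features likewise had CBA at -0.32 (NM_008480) and 0.23 (X73433). Spots of a single feature could also disagree. For the Tnc feature lowest in CBA, the CBA contrast was 0.18 from the first spots and -0.68 from the second. For the Col6a3 feature highest in BALB it was -0.38 and 0.37. For both Lama1 features it kept its sign. The 3 Lama3 features spanned 0.350, 0.273 and 0.049. The narrowest of these joined spots that ran opposite ways, with a BALB contrast of 0.19 from the first spots and -0.19 from the second. Whether the features of a gene read different transcripts was not tested, and their oligonucleotide sequences were not used here.

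Lists of other genes that build, modify or bind this matrix had median spans of 0.380 to 0.475, against 0.45 over all features, and 2 features of the list of integrin adhesion partners were members as well. Of 19 features of collagen processing and cross-linking, 0 passed an FDR of 10% in any contrast and 4 had an unadjusted p under 0.05 between strains (Bmp1, Loxl1, Loxl2 and Loxl3). Loxl2, a lysyl oxidase that cross-links collagen, was at a level of -0.27 in BL6 and 0.41 in BL10, on the same sides as Col1a1, and Loxl3 was at 0.36 in BL6 and -0.12 in BL10. Loxl1 was at 1.07 in CBA and -0.51 in DBA, a span of 1.58. Of 44 features of other matrix glycoproteins and proteoglycans, 3 had an unadjusted p under 0.05 (1 feature of Agrn, Matn2 and Lgals1), and the other Agrn feature had the opposite sign in BL6 (0.33, against -0.32). Of 19 features of other matrix proteases and inhibitors, 1 did (Adam8), as did 4 of 26 features of integrin adhesion partners (Ilk, Sdc4, Fhl2 and 1 feature of Cd44). Ilk, the kinase bound to beta integrins, was at -0.34 in BL6 and 0.33 in BL10. Of 21 features of growth factors that act on matrix expression, 1 did (Ccn4). None of these lists had a feature past an FDR of 10%, where 0.13% of all features passed between strains. At an unadjusted p under 0.05, 14% of all features passed.

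Genes of the muscle fibre itself also varied between strains. Of 7 features of the fibre marker list, 1 passed an FDR of 10% between strains (Pvalb, the calcium buffer of fast fibres) and 4 had an unadjusted p under 0.05. Over all features, 0.13% and 14% did. Tnnt3, a troponin of fast fibres, was at -0.60 in BL6, with CBA, BL10, DBA and BALB at -0.21, 0.05, 0.22 and 0.54, and Tnnc2 was at -0.60 in BL6 and -0.62 in CBA. Pvalb was at 0.11 in BL6 and -1.07 in CBA. The medians over the fibre list were -0.219 in CBA, -0.067 in BL10, 0.089 in BL6, 0.224 in DBA and 0.384 in BALB. Of the other lists, endothelium had 0 of 7 features and blood 0 of 3 at an unadjusted p under 0.05, where 14% of all features were. Adipocytes had 1 of 7 (Car3, which muscle also expresses), smooth muscle 2 of 5 and Schwann cells 2 of 8. Since the values are ratios, none of these markers could be read as present or absent, and the part of tissue makeup in the matrix values was not tested.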

How the data were processed

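Total RNA from the quadriceps of 2 mice from each of 5 strains was labelled with Cy5 or Cy3 and hybridised to arrays of 7776 oligonucleotides spotted in duplicate. The authors quantified spots in GenePix Pro 3.0, took off the local background and applied variance-stabilizing normalization (VSN) in R. They deposited the ratio as the natural log of Cy5 over Cy3 at 15552 spots for 10 arrays, and scale and direction were taken from the method, the dyes and the labels. Ratios were converted to log2, duplicates were averaged, 80 features of 1 control oligonucleotide were combined, and the median of each array was set to 0 (it was 0.0507 to 0.109 before), which left 7697 features. Of the oligonucleotides, 6831 had 1 gene symbol in the array annotation, 7 had several and 938 had none. All 100 members were found in the RefSeq table of GRCm38.p6.

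The fit (limma 3.58.1, R 4.3.3) had strains, a dye term for each feature, and the animal as a random effect with a ratio of animal to array variance of 0.446, and it left 3 residual degrees of freedom with 6.13 from the shared spread. Adjusted p-values are Benjamini-Hochberg values over all 7697 features. Animal values are dye-corrected ratios summed along each of 2 chains of arrays, minus the mean of the other strains in that chain. The fit was tested on simulated data. The members and lists were chosen with earlier results of these data known. Members named in full were those past an FDR of 10%, the 3 of lowest p in each class, the 5 of widest span, Thbs4, and all features of such genes, and the others were named after their values were seen. Alternatives were the identical arrays entered as either label, no dye term, no centring, equal array spreads, either spot alone, independent arrays, no shared spread, an FDR of 5%, a replicate block, and each animal left out. An animal was left out with every array that held it. Arrays carry no read depth, and their number limits the precision.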

Additional observations from a re-analysis of the deposited data

How the results depend on the processing

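The count of 0 members past an FDR of 10% between strains (0.13% of all features) changed with the processing. It became 1 (Col4a3) with the shared values as BL6 2 against CBA 1 and 7 with equal array spreads. It became 1 (Timp2) with the second spot alone and 2 (Col4a3 and Itgax) with a replicate block. The shares of all features under these alternatives are not given here, so these FDR counts are no result about the members. The 21 at an unadjusted p under 0.05 (14% of all features) became 11 with all 10 arrays (9.81%), 11 with the shared values as BL6 2 against CBA 1 (10.3%) or BALB 1 against CBA 2 (8.35%), 5 without a dye term (2.96%), 11 with the first spot alone (10.5%), 13 with no shared spread (9.51%) and 8 to 59 with 1 animal left out (5.11% to 49.2%). The 1 member past an FDR of 10% in any strain became 0 with all 10 arrays, with the shared values as BL6 2 against CBA 1, without a dye term, with the first spot alone, with independent arrays, with no shared spread, at an FDR of 5% and with a replicate block, 2 with the shared values taken as BALB 1 against CBA 2, 6 with equal spreads and 0 to 54 with 1 animal left out. The replicate block takes animals of the same number as paired, which no label states, and it left 17 members lower in BL6. The 19 lower in BL6 (6.64% of all features) became 10 with all 10 arrays (8.98%), 7 and 12 with the shared values as BL6 2 against CBA 1 (8.22%) or BALB 1 against CBA 2 (9.25%), 9 without a dye term (5.17%), 9 with the first spot alone (5.18%), 11 with no shared spread (4.24%) and 6 to 24 with 1 animal left out (1.73% to 16.4%). The 12 higher in BL10 (4.11% of all features) became 7 with the shared values as BL6 2 against CBA 1 (4.47%), 7 without a dye term (2.79%), 6 with no shared spread (2.40%) and 0 to 25 with 1 animal left out (0.442% to 12.4%). The alternatives for these last 2 counts, and the one for the Timp2 spot, were chosen after seeing the data. The fit without DBA 2 could not separate strain from dye and gave no value.

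Direction turned mostly in CBA contrasts. With all 10 arrays as labelled, those of Thbs3, Dcn, Timp2, Mmp2, Fn1, Col6a1 and Bgn became -0.22, -0.29, -0.14, -0.24, -0.50, -0.081 and -0.22, and the BL6 contrast of Col3a1 became 0.12. With the shared values as BL6 2 against CBA 1, they became -0.11, -0.26, -0.075, -0.18, -0.37, -0.0013 and -0.20, and Col3a1 in BL6 0.096. With the shared values read as BALB 1 against CBA 2, the CBA contrasts of Col6a3 (AF034136), Thbs3, Mmp1a, Mmp2, Fn1 and Bgn became -0.044, -0.10, -0.034, -0.032, -0.14 and -0.050. Without a dye term those of Itgb2l, Col8a1, Itga2, Col6a3 (AF034136), Thbs3, Itgb3, Nid1, Mmp1a and Mmp2 became -0.33, 0.15, 0.22, -0.023, -0.14, 0.52, 0.31, -0.86 and -0.043, and the BL6 contrast of Col6a3 (AF064749) became 0.0089, or 0.058 with the first spot alone. With 1 animal left out, CBA contrasts ran between -0.68 and 3.67 for Dcn, -0.25 and 1.74 for Bgn, -0.12 and 1.21 for Col11a1 (X91014), -0.86 and 0.85 for Col6a3 (AF034136), -0.87 and 0.0070 for Nid1 and -0.29 and 0.74 for Mmp1a. BALB contrasts ran between -0.42 and 1.21 for Timp3, -1.31 and 0.12 for Thbs2 and -0.24 and 2.23 for Itgax, the BL6 contrast of Col6a3 (AF064749) between -0.29 and 0.24, and the DBA contrast of Timp4 between -0.13 and 0.47. The cause of these turns was not tested.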
